A study of Mus musculus with 6 samples.

Results

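Expression of 9 genes of prostaglandin and prostacyclin biology was examined in cultured mouse B cells with and without Prmt1, the gene for the main protein arginine methyltransferase making asymmetric dimethylarginine. The 9 were taken by symbol from a count table of 39017 genes. They are the receptor genes Ptgir, Ptger1, Ptger2, Ptger3 and Ptger4, and the enzyme genes Ptgs1, Ptgs2, Ptges and Hpgd. Ptgir was selected on its measured rise in this same comparison and the rest for their place in its pathway, so the genotype difference of each is given as a description. Where the call of the whole-table fit is mentioned for one of the 9, it records that fit and supports nothing. At least 1 read was counted for 7 of the 9, and 6 passed the low-count filter, among 18268 genes that did so.

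Prostanoids are short-lived lipid signals made from arachidonic acid. The cyclooxygenases COX-1 (Ptgs1) and COX-2 (Ptgs2) form the precursor PGH2, from which separate synthases make prostaglandin E2, prostaglandin D2, prostacyclin or thromboxane. These act outside the cell on receptors coupled to G proteins: the prostacyclin receptor IP (Ptgir) and the prostaglandin E2 receptors EP2 (Ptger2) and EP4 (Ptger4) raise cAMP through Gs, EP3 (Ptger3) mainly lowers it, and EP1 (Ptger1) raises calcium. In B lymphocytes, prostaglandin E2 is known to act through cAMP and to modify responses to IL-4, including isotype switching.

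The cells were induced germinal centre-like B cells (iGBs): splenic B cells of C57BL6/J mice, grown for 3.5 days with IL-4 on irradiated 40LB feeders, fibroblasts that supply CD40L and BAFF, and then separated from the feeders. The labels give IL-4 at 5 ng/ml, whereas the study's methods give a lower concentration, and which applied to these libraries is not known here. Control iGBs came from 3 Cg1-cre mice and Prmt1-null iGBs from 3 Cg1-cre Prmt1f/f mice, with 1 library from each mouse. Both groups therefore carried the Cre, which is driven from the immunoglobulin Cγ1 locus and acts in activated B cells. Control replicate 1 and Prmt1-null replicate 3 were male and the other 4 mice were female. The ages of the mice are not given in the sources used here.

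Each library held 45343250 to 62774232 counted reads, and the totals of the groups overlapped (45343250 to 62774232 in Control, 55597902 to 60787249 in Prmt1-null). A floor of 3 counts was 0.0475 to 0.0657 CPM (counts scaled to a fixed library total), and intervals and floors cover counting error only. Prmt1 counts, scaled to a common library size (normalized counts), were 3964, 3924 and 4838 in Control and 1745, 1478 and 1477 in Prmt1-null libraries (log2 fold change -1.44, SE 0.095), over the whole gene, including exons that a deletion may leave. A gene was called changed when edgeR's quasi-likelihood test gave a Benjamini-Hochberg adjusted p under 0.05 and its mean normalized count was over 100. Of all tested genes 216, or 1.18%, were called, 106 with higher and 110 with lower counts without Prmt1, and in 19.9% the groups did not overlap. An unadjusted p under 0.05 was reached by 13.5% of tested genes, and DESeq2 called 3.94% and limma-voom 1.36%. The median log2 fold change over all tested genes was -0.0008.

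The promoters of the receptor genes whose groups did not overlap, Ptgir and Ptger4, are shown because the report turns on these 2 transcripts. Each is the RefSeq sequence of build GRCm38.p6 from 250 bases before to 50 bases after the gene's start, read 5′ to 3′ on the gene's strand, with capitals marking the GC box GGGCGG on either strand. Ptgir lies at chr7:16906240-16906539 on the plus strand and Ptger4 at chr15:5244138-5244437 on the minus strand.
Ptgir: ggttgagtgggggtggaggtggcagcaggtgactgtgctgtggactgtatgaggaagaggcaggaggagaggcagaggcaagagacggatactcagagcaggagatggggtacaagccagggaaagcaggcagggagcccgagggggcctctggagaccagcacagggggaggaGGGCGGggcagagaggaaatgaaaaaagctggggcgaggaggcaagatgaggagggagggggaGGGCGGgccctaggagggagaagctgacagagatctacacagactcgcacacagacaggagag
Ptger4: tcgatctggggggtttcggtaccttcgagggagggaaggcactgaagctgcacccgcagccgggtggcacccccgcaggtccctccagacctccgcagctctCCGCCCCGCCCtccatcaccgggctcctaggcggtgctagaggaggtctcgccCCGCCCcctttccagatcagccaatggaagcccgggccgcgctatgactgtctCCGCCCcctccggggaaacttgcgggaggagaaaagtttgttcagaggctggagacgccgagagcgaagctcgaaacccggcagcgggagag
The Ptgir window held 2 GC boxes, beginning 76 and 13 bases before the start. The Ptger4 window held 4, beginning 148, 143, 95 and 42 bases before the start, the first 2 of them overlapping by a base. The GC box occurred in 35.7% of the 32851 promoters of this length. No other motif searched was found in either window, where the E-box CACGTG (7.15% of all promoters), the CRE TGACGTCA (1.79%) and the TATA motif TATAAA (13.6%) were sought on both strands. A promoter sequence was found for 8 of the 9 genes, Ptger1 having none. The Ptgs2 window held 1 E-box and 1 GC box. These matches describe letters only.

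Ptgir (ENSMUSG00000043017, chromosome 7, 16906490 to 16910905, plus strand) encodes the IP receptor. It had 58, 59 and 80 reads in Control and 146, 295 and 295 reads in Prmt1-null libraries. Normalized counts were 70.5, 51.8 and 88.1 in Control and 147.8, 271.9 and 278.9 in Prmt1-null iGBs. Every Prmt1-null library stood above every Control library, Prmt1-null replicate 1 being nearest to the Control range. The means were 70.1 ± 18.2 and 232.9 ± 73.7 (SD, n = 3 each), a 3.34-fold difference (log2 fold change 1.74, SE 0.286). No other annotated exon covered any of its 3334 exon bases, on either strand.

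With 1 library left out at a time, the log2 fold change of Ptgir ranged from 1.55 (without Control replicate 2) to 1.98 (without Prmt1-null replicate 1). DESeq2 with a prior that shrinks fold changes gave 0.66, the setting that moved the value most. In bulk libraries, a level shared by all cells and a higher level in a few of them cannot be told apart, nor can fewer cells of a type and less RNA per cell.

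The E prostanoid receptors differed widely in level. Ptger4 (ENSMUSG00000039942, chromosome 15, 5206661 to 5244187, minus strand), which encodes EP4, had counts of 1667, 2362 and 2255 in Control and 1890, 1884 and 1655 in Prmt1-null libraries. After normalization these were 2025, 2074 and 2485 against 1914, 1737 and 1564, so that every Prmt1-null value lay below every Control value. The gap between the nearest libraries was smaller than the spread within either group. Mean normalized counts were 2195 ± 252 and 1738 ± 175 (SD, n = 3 each), a ratio of 0.792 (log2 fold change -0.34, SE 0.101; -0.41 to -0.24 with 1 library left out at a time). Of its exon bases, 15.3% overlap the pseudogene Gm15937 and 1.2% the gene Ttc33, both on the opposite strand, and Ttc33 itself had a log2 fold change of -0.01.

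Ptger1 (ENSMUSG00000019464, chromosome 8, 83666678 to 83672753, plus strand), annotated as EP1, had counts of 1501, 2936 and 2198 in Control and 2641, 2577 and 2652 in Prmt1-null libraries. Normalized, these were 1824, 2578 and 2422 against 2674, 2376 and 2507, and the groups overlapped. The log2 fold change was 0.15 (SE 0.109), and it was 0.01 without Control replicate 1, the lowest library. These counts cannot be assigned firmly to Ptger1, because 71.0% of its exon bases carry annotation on both strands and whether reads were counted by strand is not given in the sources used here.

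Ptger2 (ENSMUSG00000037759, chromosome 14, 44988195 to 45003820, plus strand), for EP2, had few reads: 42, 38 and 30 in Control and 19, 19 and 46 in Prmt1-null libraries. The groups overlapped because Prmt1-null replicate 3 exceeded 2 of the Control libraries after normalization. Mean normalized counts were 39.2 ± 10.3 and 26.8 ± 14.5 (SD, n = 3 each), with a log2 fold change of -0.54 (SE 0.529). It was -1.08 without Prmt1-null replicate 3 and -0.31 without Prmt1-null replicate 2. Ptger3 (ENSMUSG00000040016, chromosome 3, 157566892 to 157645888, plus strand), for EP3, had 0 counts in all 6 libraries, which allows up to 0.0657 CPM in the shallowest of them.

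**Figure D1:**
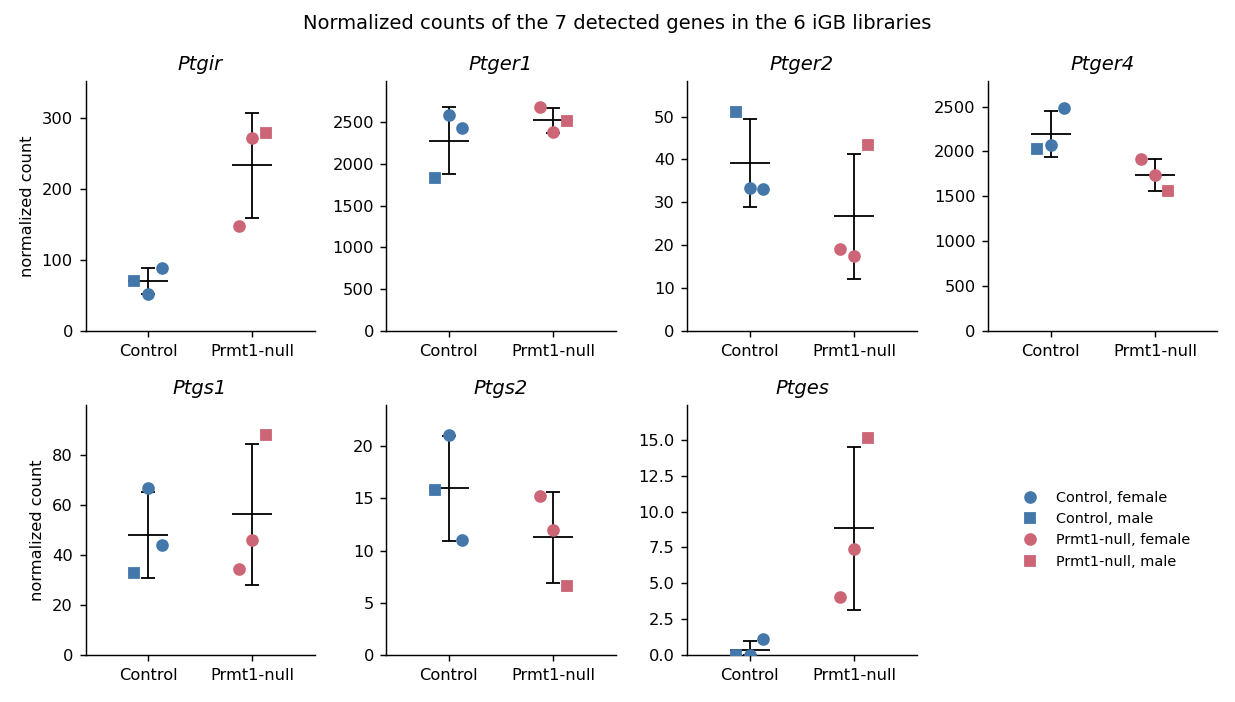
Normalized counts (y axis, linear from 0, a scale of its own in each panel) of the 7 genes with reads, by group; each point is 1 library, squares male and circles female, and bars give the mean and SD of 3 libraries. Ptgir is higher and Ptger4 lower in all 3 Prmt1-null libraries, while Ptger1, Ptger2, Ptgs1 and Ptgs2 overlap and Ptges rests on 29 reads in all.

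The 4 enzyme genes Ptgs1, Ptgs2, Ptges and Hpgd had few or no reads. Ptgs1 (ENSMUSG00000047250, chromosome 2, 36230426 to 36252272, plus strand), for COX-1, had counts of 27, 76 and 40 in Control and 34, 50 and 93 in Prmt1-null libraries. Its groups overlapped, with means of 47.9 ± 17.3 and 56.1 ± 28.1 normalized counts (SD, n = 3 each) and a log2 fold change of 0.22 (SE 0.442). The sign of this difference turned without Prmt1-null replicate 3 (-0.26). Ptgs2 (ENSMUSG00000032487, chromosome 1, 150100031 to 150108227, plus strand), for COX-2, an early-response gene in many activated cells, had 13, 24 and 10 reads in Control and 15, 13 and 7 in Prmt1-null libraries. These groups overlapped too (16.0 ± 5.03 and 11.3 ± 4.33 normalized counts, SD, n = 3 each; log2 fold change -0.51, SE 0.687; -0.77 to -0.24 with 1 library left out at a time).

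Ptges (ENSMUSG00000050737, chromosome 2, 30889471 to 30929863, minus strand) encodes the inducible microsomal prostaglandin E synthase. It had 0, 0 and 1 reads in Control and 4, 8 and 16 in Prmt1-null libraries, too few to pass the filter. Every Prmt1-null library exceeded every Control library. Summed over the group the counts were 1 and 28, a ratio of 25.7 after scaling to library size, with an exact 95% counting interval of 4.24 to 1050, which leaves out variation between mice. Without Prmt1-null replicate 3, which held 16 of the 28 reads, the ratio was 16.6. Hpgd (ENSMUSG00000031613, chromosome 8, 56294585 to 56321043, plus strand), the dehydrogenase that inactivates prostaglandins, had 0 counts in all 6 libraries.

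Of the 6 tested genes, 1 (Ptgir) was called, beside 1.18% of all tested genes, and 2 (Ptgir and Ptger4) had groups that did not overlap, beside 19.9%. DESeq2, with or without a prior on fold changes, and edgeR without the low-count filter each called 2 (Ptgir and Ptger4). Since the genes were chosen with these values known, nothing is read from these counts. The log2 fold change was above 0 for Ptgir, Ptger1 and Ptgs1 and below 0 for Ptger2, Ptger4 and Ptgs2.

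Levels were compared between genes as RPKM, reads per kilobase of exon at a common sequencing depth. Averaged over the 6 libraries, Ptger1 was at 7.92 RPKM and Ptger4 at 5.33 RPKM, with overlapping ranges, and the Ptger1 value is uncertain because its exons carry annotation on both strands. Ptgir followed at 0.82 RPKM, its range of 0.28 to 1.51 lying clear of that of Ptger4 (4.24 to 6.74). In Control iGBs Ptgir stood at 0.379 ± 0.098 RPKM and in Prmt1-null iGBs at 1.26 ± 0.399 RPKM (SD, n = 3 each), so that in both groups it was below every Ptger4 value. Then came Ptgs1 at 0.242, Ptger2 at 0.114, Ptgs2 at 0.0536 and Ptges at 0.0211 RPKM, each overlapping its neighbour in this order.

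**Figure D2:**
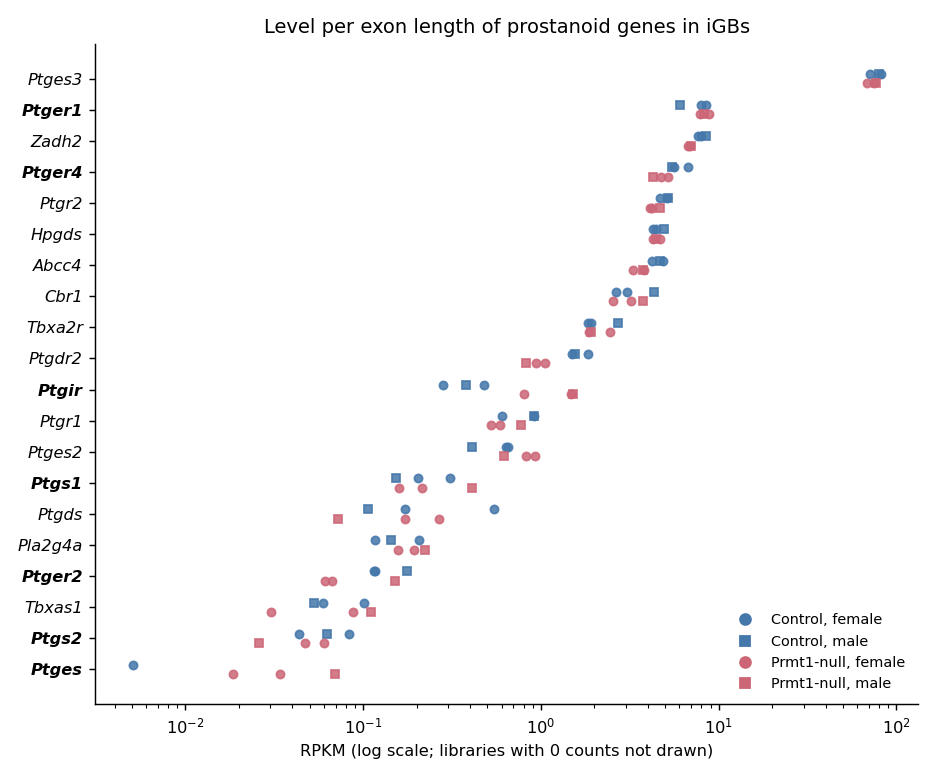
RPKM (x axis, log scale) of the 7 detected genes, in bold, and 13 other genes of the prostanoid pathway; each point is 1 library, with Control in blue above and Prmt1-null in red below, and squares are male mice. Ptger1 and Ptger4 lie near the top, Ptgir in the middle with its groups apart, and Ptgs1, Ptger2, Ptgs2 and Ptges at the low end.

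The rest of the pathway was described over 37 further prostanoid genes, covering phospholipases, synthases, reductases, transporters and other receptors. Of the 37, 27 were tested and edgeR's quasi-likelihood test, after Benjamini-Hochberg adjustment, called 0, beside 1.18% of all tested genes. At an unadjusted p under 0.05 there were 5, beside 13.5% of all, while DESeq2 called 2, beside 3.94%, and limma-voom 0, beside 1.36%. The median log2 fold change of the 27 was -0.03, 12 were above 0, and in 7 the groups did not overlap, beside 19.9% of all. No reads were counted for 3 of the 37, among them the prostaglandin D2 receptor gene Ptgdr and the prostaglandin F receptor gene Ptgfr.

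The prostanoid gene nearest to a call was Ptgdr2, for the second prostaglandin D2 receptor (DP2, also CRTH2; Gpr44 in the files), which signals through Gi and lowers cAMP. Its counts were 188, 307 and 200 in Control and 153, 149 and 128 in Prmt1-null libraries. Normalized means were 239.4 ± 26.4 and 137.8 ± 17.0 (SD, n = 3 each), without overlap (log2 fold change -0.80, SE 0.192; adjusted p = 0.0628, edgeR's quasi-likelihood test). On the opposite strand, Ccdc86 covers 39.0% of its exon bases. Abcc4, a transporter that exports prostaglandin E2 and cyclic nucleotides, had 1625 ± 117 normalized counts in Control against 1279 ± 103 in Prmt1-null iGBs (SD, n = 3 each), also without overlap (log2 fold change -0.35, SE 0.098; edgeR adjusted p = 0.115). These 2 were the genes that DESeq2 called, Ptgdr2 at -0.80 and Abcc4 at -0.35 on the log2 scale.

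Other synthases showed smaller differences relative to their error. Hpgds, the hematopoietic prostaglandin D synthase, had 1618 ± 122 normalized counts in Control against 1587 ± 71.0 in Prmt1-null iGBs (SD, n = 3 each; log2 fold change -0.03, SE 0.091). Ptges3, a cochaperone also listed as cytosolic prostaglandin E synthase, was the most abundant gene of the 20 plotted by RPKM, at 75.5 (log2 fold change -0.08, SE 0.068). Ptges2, a membrane-associated prostaglandin E synthase, had a log2 fold change of 0.48 (SE 0.228), with overlapping groups. The prostacyclin synthase gene Ptgis, which would make the ligand of IP, had 34 reads over the 6 libraries and was not tested. The thromboxane receptor gene Tbxa2r stood at 2.11 RPKM, with a log2 fold change of -0.05 (SE 0.202).

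**Figure D3:**
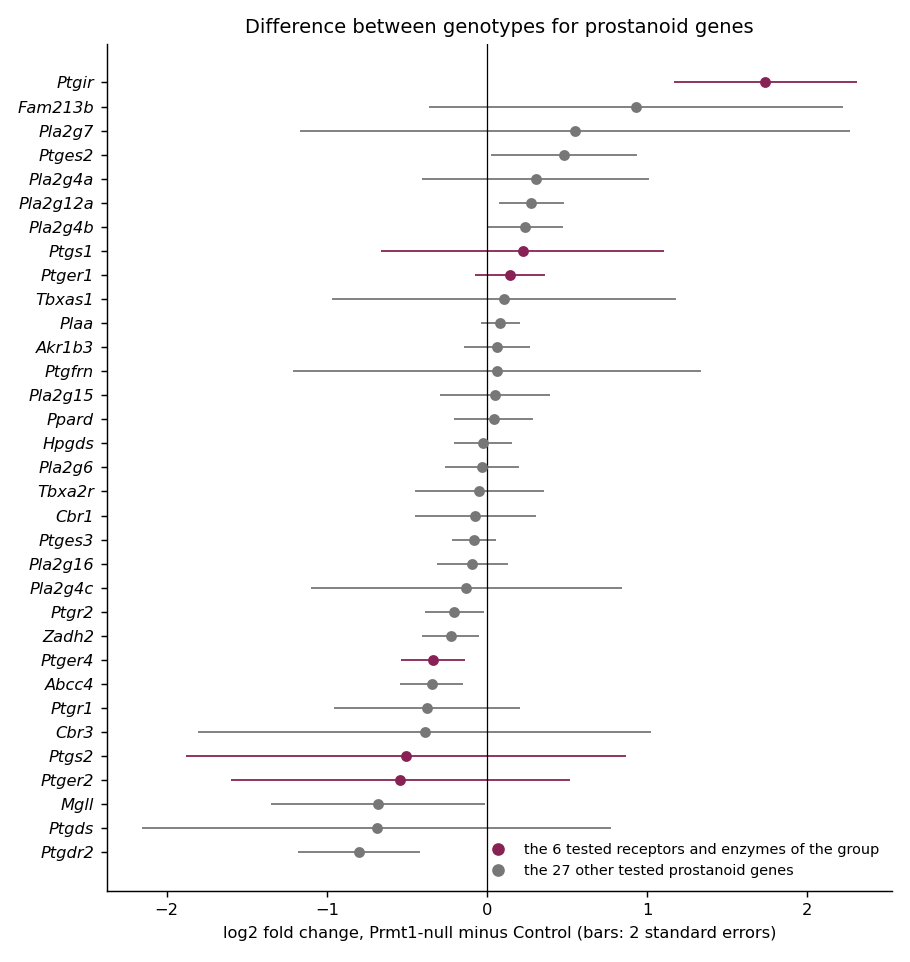
Log2 fold change between Prmt1-null and Control iGBs (x axis) of the 33 tested prostanoid genes, in order of size, with bars of 2 SE; the 6 tested genes of the group described here are in purple. Ptgir, at 1.74, is the only one over 1, and the bars of Ptger4, Abcc4 and Ptgdr2, among others, lie wholly below 0. Besides that of Ptgir, the bars of Ptges2, Pla2g12a and Pla2g4b lie wholly above 0.

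Leukotrienes are made from the same fatty acid through lipoxygenases. Of 20 leukotriene and lipoxygenase genes 12 were tested, and 1 was called, against 1.18% of all tested genes: Cyp4f18, an enzyme that inactivates leukotriene B4. It fell from 2520 ± 218 to 1714 ± 72.5 normalized counts (SD, n = 3 each; log2 fold change -0.56, SE 0.084; edgeR adjusted p = 0.00647), a call lost without Prmt1-null replicate 2 (-0.53; adjusted p = 0.0621). On the opposite strand, Zfp961 covers 9.8% of the exon bases of Cyp4f18. The median log2 fold change of the 12 was -0.04, 6 were above 0, and in 4 the groups did not overlap, beside 19.9% of all. An unadjusted p under 0.05 was found for 3 (13.5% of all), and DESeq2 and limma-voom each called 1 (3.94% and 1.36% of all).

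Since IP signals through Gs and cAMP, 3 lists of that route were also read. Of 58 cAMP signalling genes, 49 were tested and 0 called by edgeR, beside 1.18% of all tested genes. An unadjusted p under 0.05 was found for 8 (13.5% of all), and DESeq2 called 2 (3.94% of all) and limma-voom 0. Their median log2 fold change was -0.04. The smallest adjusted p among them were of Pde7b, a cAMP phosphodiesterase (319.5 ± 40.4 and 193.9 ± 16.6 normalized counts, SD, n = 3 each; log2 fold change -0.72, SE 0.168; edgeR adjusted p = 0.0569), and of Adcy3, an adenylyl cyclase (log2 fold change -0.44, SE 0.117; edgeR adjusted p = 0.0968). Groups did not overlap for either. On the opposite strand, Cenpo covers 22.1% of the exon bases of Adcy3.

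Of 21 genes known to be induced by cAMP, 18 were tested and 0 called by edgeR, 2 had an unadjusted p under 0.05, and DESeq2 called 1 and limma-voom 0, beside 1.18%, 13.5%, 3.94% and 1.36% of all tested genes. Their median log2 fold change was -0.09, and 5 of 18 were above 0. Sik1, a kinase gene transcribed in response to cAMP, had 6982 ± 52.8 normalized counts in Control against 8196 ± 217 in Prmt1-null iGBs (SD, n = 3 each; log2 fold change 0.23, SE 0.055; edgeR adjusted p = 0.0611). Egr1 had a log2 fold change of -0.47 (SE 0.149; edgeR adjusted p = 0.162), and its groups overlapped.

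Of 24 other receptors coupled to Gs, 15 were tested and 0 called by edgeR, 1 had an unadjusted p under 0.05, and DESeq2 called 1 and limma-voom 0, beside the same shares of all tested genes. Their median log2 fold change was -0.09, and 5 of 15 were above 0. Calcrl, which forms receptors for CGRP and adrenomedullin, had 1152 ± 89.3 and 1527 ± 120 normalized counts (SD, n = 3 each; log2 fold change 0.41, SE 0.101; edgeR adjusted p = 0.0749), without overlap. Hrh2, the histamine H2 receptor gene, had a log2 fold change of 0.32 (SE 0.153; edgeR adjusted p = 0.383). By RPKM the highest of these receptors were Gpr174 at 19.6, Gpr65 at 17.9, Htr7 at 9.52 and Adora2a at 5.62, against 1.26 for Ptgir in Prmt1-null iGBs.

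The genes around Ptgir were read within 250 kb of its start, a window that lies 28.1 Mb from Prmt1 on the same chromosome. Of 15 other genes with reads, 11 were tested and 1 was called, beside 1.18% of all tested genes. This was Dact3, a modulator of Wnt signalling, whose end lies 19.0 kb before the start of Ptgir on the same strand. Its normalized counts rose from 1113 ± 50.2 to 1879 ± 87.4 (SD, n = 3 each; log2 fold change 0.76, SE 0.090; edgeR adjusted p = 0.00227), and it kept its call in all 14 alternatives. Between Dact3 and Ptgir lies Gng8, a G protein gamma subunit gene, with 0 reads in each Control library and 2, 12 and 32 in the Prmt1-null libraries. Against a floor of 3 counts over the Control group, its summed count was at least 14.1-fold higher, in too few reads to be tested. Of its 46 reads 32 were in Prmt1-null replicate 3, and without that library the bound was 6.46-fold.

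On the other side, the calmodulin gene Calm3, 8.89 kb after the start of Ptgir, had a log2 fold change of 0.18 (SE 0.075; edgeR adjusted p = 0.287). It was called without Control replicate 3 only (0.28; edgeR adjusted p = 0.0405). Beyond Dact3, on its side of Ptgir, Prkd2, Slc1a5 and Ap2s1 had log2 fold changes of 0.04, 0.04 and 0.04. Beyond Calm3, Ppp5c was at -0.02. The groups did not overlap in 4 of the 11 tested neighbours, beside 19.9% of all tested genes, and these 4 (Strn4, 9330104G04Rik, Dact3 and Hif3a) were all higher in Prmt1-null iGBs, at 0.20 to 0.76 on the log2 scale. Pnmal2 and Ccdc8, with 65 and 61 reads in all, had overlapping groups. Their log2 fold changes were 0.88 (SE 1.18) and -0.75 (SE 0.833).

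**Figure D4:**
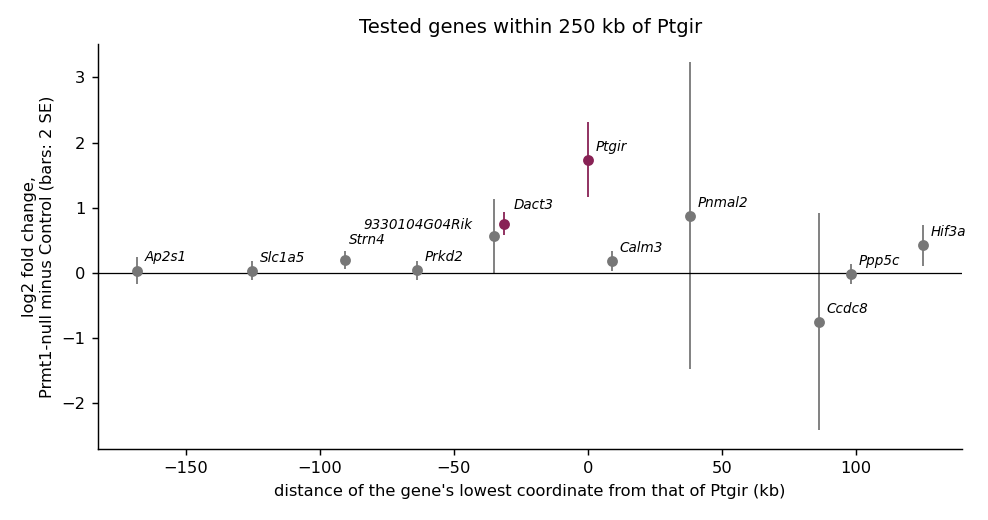
Log2 fold change between Prmt1-null and Control iGBs (y axis, bars of 2 SE) of Ptgir and the 11 tested genes within 250 kb, by distance of their lowest coordinate from that of Ptgir (x axis, kb); called genes are in purple. Ptgir at 1.74 and Dact3 at 0.76 are the called genes.

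The genes whose levels ran most like those of Ptgir were Spata24 (Pearson's r = 0.998 of log2 CPM over the 6 libraries), Tmem109 (0.995), Mtmr14 (0.989), Timmdc1 (0.988) and Creg1 (0.988). The 6 libraries are in 2 genotypes that differ in Ptgir, so genes that differ in the same direction score high. Their log2 fold changes, in the same order, were 0.75, 0.38, 0.14, 0.24 and 0.43, given as a description because the likeness selects for a difference. Of the exon bases of Spata24, 41.9% overlap another annotated gene, SPATA24, on the same strand.

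Markers of other cells were read because Ptgir, Ptges and Ptgs1 are also known from fibroblasts, mast cells, platelets or macrophages. Counts of markers called stand beside 1.18% of all tested genes called by edgeR, 3.94% by DESeq2 and 1.36% by limma-voom, and beside 13.5% with an unadjusted p under 0.05. The 8 B cell markers summed to 6812 to 7182 CPM in Control and 7141 to 7501 CPM in Prmt1-null libraries. The 20 feeder fibroblast markers summed to 31.8 to 35.9 CPM in Control and 36.5 to 43.6 CPM in Prmt1-null libraries, ranges that did not overlap. Of the 17 tested, 14 were higher in Prmt1-null iGBs and 0 were called by edgeR, DESeq2 or limma-voom, with 2 at an unadjusted p under 0.05 (edgeR; the smallest adjusted p, of Col1a1, was 0.173), and Lum and Postn were at 0 in all libraries. Cd40lg and Tnfsf13b, which the feeders supply, summed to 0.701 to 1.35 CPM in Control and 0.603 to 0.981 CPM in Prmt1-null libraries.

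Mast cell and basophil markers (5 genes, 2 of them tested by edgeR, 0 called and 1 at an unadjusted p under 0.05) summed to 1.36 to 2.43 CPM in Control and 2.44 to 3.10 CPM in Prmt1-null libraries, and these ranges did not overlap. Cpa3 had 12, 40 and 16 reads against 62, 56 and 82, and Mcpt8 had 2, 1 and 0 against 14, 10 and 4, both higher in all 3 Prmt1-null libraries. Kit summed to 185 reads against 239, while Ms4a2 (10 reads in Control) and Prss34 (4 reads in Control) were at 0 in every Prmt1-null library. The sums of the 9 myeloid markers overlapped (9.57 to 22.7 and 17.9 to 19.2 CPM), although Emr1 (also Adgre1), the F4/80 gene, was called (247, 403 and 367 reads against 558, 579 and 696; log2 fold change 0.73, SE 0.147; edgeR adjusted p = 0.0319). With 1 library left out, Emr1 stayed called only without Control replicate 3, and its adjusted p was otherwise up to 0.141. Platelet and megakaryocyte markers overlapped (1.35 to 3.34 and 1.98 to 4.0 CPM), and so did those of T cells, erythroid cells, NK cells and endothelium. Plasma cell markers summed to 1141 to 1240 CPM in Control and 1276 to 1381 CPM in Prmt1-null libraries, without overlap. Of the 6, 5 were higher in Prmt1-null iGBs, while Igj (also Jchain) had a log2 fold change of -0.09 (SE 0.077). Most reads in the sum were of Irf4 and Xbp1. By edgeR 0 of the 6 were called, with 2 at an unadjusted p under 0.05, and DESeq2 and limma-voom each called 1. The 5 germinal centre-like markers overlapped (580.8 to 617.2 and 599.7 to 662.2 CPM), and edgeR called 1 of the 5, Mybl1, a transcription factor gene of germinal centre B cells (log2 fold change -0.50, SE 0.111; edgeR adjusted p = 0.0456), which lost its call in each of the 6 fits without a library (adjusted p up to 0.169). The part of any of these in the values of Ptgir, Ptger4 and Ptges was not tested.

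**Figure D5:**
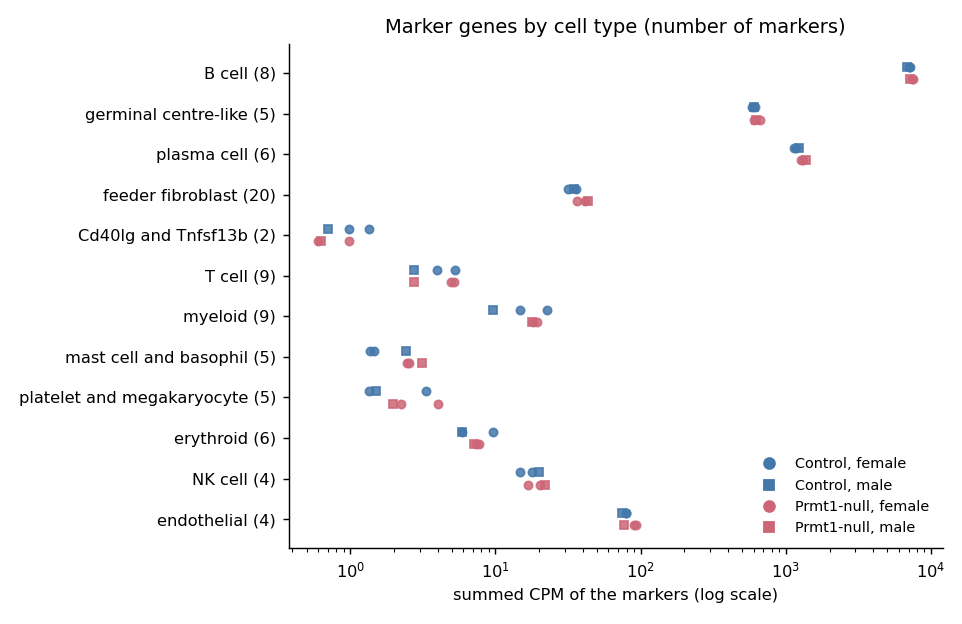
Summed CPM of marker genes (x axis, log scale) for each cell type, with the number of markers in brackets; each point is 1 library, with Control in blue and Prmt1-null in red, and squares are male mice. B cell markers have the highest sum in all libraries, and the plasma cell, fibroblast, and mast cell and basophil sums are higher in all 3 Prmt1-null libraries.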

How the data were processed

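Bulk RNA was measured in 6 iGB libraries (3 Control, 3 Prmt1-null; ribosomal RNA depleted, stranded kit). As the study's methods and the submitters' processing notes state, the authors used Trimmomatic 0.32 for trimming and STAR 2.3.0e for alignment to mm10, keeping primary alignments with at most 2 locations, and counted reads over Ensembl exons with featureCounts 1.4.4. The deposited table holds unnormalized counts, and no count column was left unmapped. The strand setting of the counting is not given in the sources used here. Totals of 45343250 to 62774232 counts set the precision.

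From these counts, chromosome Y genes (398) and genes failing edgeR's filterByExpr (minimum count 10) were left out, libraries were scaled by TMM, and groups were compared with edgeR 4.0.16 (glmQLFit and glmQLFTest, R 4.3.3) over 18268 genes, with Benjamini-Hochberg adjustment. Genes were called at an adjusted p under 0.05 where the normalized count averaged over 100. RPKM, positions and overlaps used exons of the GENCODE annotation of GRCm38, not the table used for counting: 37607 genes matched by identifier, 814 by symbol and 596 did not match. The script was tested on simulated counts. Alternatives used DESeq2 1.42.0, limma 3.58.1, other filters and scaling, sex or replicate number as a factor, and each library left out.

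The members and lists were chosen with earlier results of these data known. Beside the 9 genes, the text names by rule each called gene of a list, or the 2 with the smallest p in a list without a call, the called neighbours of Ptgir and the 5 genes most like it. Other genes were named after their values were seen. Some genes are not reported here, 1 of them near Ptgir, which is left out of the neighbour counts.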

Additional observations from a re-analysis of the deposited data

How the results depend on the processing

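With all libraries, 216 genes were called in the report, 720 by DESeq2, 716 by DESeq2 with a prior on fold changes and 675 without the low-count filter. DESeq2 size factors (218), limma-voom (249), chromosome Y genes kept (213), no minimum mean (218), sex as a factor (283) and the replicate block (151) stayed within 1.5 times. Leaving out a library gave 31 to 340, a shift of over 1.5 times for each: 128, 59 and 340 without Control replicates 1, 2 and 3, and 51, 31 and 77 without Prmt1-null replicates 1, 2 and 3. Of the further prostanoid genes, 2 were called by DESeq2, 2 with the prior and 2 without the filter, each time Ptgdr2 and Abcc4, and 0 otherwise. Ptgir, selected on this difference, had a log2 fold change of 0.66 with the prior, 1.71 with the replicate block and 1.72 with sex as a factor. Leaving out a library gave 1.55 to 1.98. It did not pass the call rule without Control replicate 2 (1.55), Prmt1-null replicate 2 (1.62) or Prmt1-null replicate 3 (1.59), which, like its call elsewhere, is a record of these fits and no support. Under the block the calls of Dact3, Cyp4f18 and Emr1 were kept and that of Mybl1 was lost (adjusted p = 0.0907), as it was with chromosome Y genes kept (0.0571). The block was not used because the numbers share no source in the labels and same-numbered libraries correlated at -0.075, 0.045 and -0.078. Depth limits Ptges, Gng8 and Ptgs2, with 29, 46 and 82 reads in all.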
